A study of Mus musculus with 8 samples.

Results

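Ribosomal protein genes were followed in intestinal organoids treated with tamoxifen to delete Apc, 20 days against 7 days after it was added. Members were the genes whose symbol starts with Rpl or Rps and a digit (the cytosolic class, without the Rps6k kinases) or with Mrpl or Mrps and a digit (the mitochondrial class), each read by whichever of its probes was brightest on average. The choice used symbols only and no difference between the days. It gave 137 genes, 61 cytosolic and 76 mitochondrial, of 19057 genes with a named probe. Of these, 55 cytosolic and 73 mitochondrial genes were bright enough to be tested, among 12466 genes in all.

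Organoids are small epithelial cultures grown in gel from intestinal crypts. All samples came from C57Bl mice aged 2-3 months that carried Apcflox/flox and Lgr5-EGFP-IRES-CreER, so that Cre was driven by the stem cell gene Lgr5 and could delete Apc in the cells expressing it. In both groups tamoxifen was given for 2 days and R-Spondin1, a Wnt agonist that normal organoids need, was then withdrawn, for 18 days in the 4 day 20 samples and for 5 days in the 4 day 7 samples. Each sample was hybridised to 1 Illumina mouse beadchip array. Both days had been given tamoxifen, and no sample without it was included. The days since tamoxifen, those without R-Spondin1 and those in culture therefore cannot be told apart. The share of cells that had lost Apc was not measured and may differ between the days. Whether replicates were separate cultures or animals is not stated, and the p-values below measure the spread between these samples alone, some of which may be technical.

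Cytosolic ribosomes translate nuclear-encoded mRNA and are built from a large (Rpl) and a small (Rps) subunit, whose proteins are made in fixed proportions. Many of their mRNAs start with a run of pyrimidines, the terminal oligopyrimidine (TOP) motif, through which mTOR signalling controls their translation. Mitochondrial ribosomes are separate particles that translate the few mRNAs of the mitochondrial genome, and their Mrpl and Mrps proteins are encoded in the nucleus and imported. In the intestinal crypt, loss of Apc raises Wnt signalling and Myc, a known activator of ribosome production.

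All values are normalised log2 intensities, with a median of 6.81 and a maximum of 15.43 on every array. A probe was taken as above background over a limit of 6.796. The epithelial genes Cdh1, Vil1, Krt8, Krt18 and Cdx2 were far above the limit on all 8 arrays, and the Epcam probe lay near it (6.79 to 7.00 at day 20, 6.75 to 6.91 at day 7). Krt20, an epithelial gene of differentiated cells, had 7.04 to 8.15 at day 20 and 9.18 to 11.44 at day 7, and fell by 2.26 (limma adjusted p = 0.0382). Col1a1, Ptprc and Lyz2, which mark fibroblasts and immune cells, were above the limit on none of the arrays. Other markers of such cells lay close to it, Col1a2 and Pdgfra of fibroblasts at 6.78 to 6.88 at day 20 and 6.69 to 7.04 at day 7, with 7 arrays above it each, and Cd3e of T cells at 6.90 to 6.94 at day 20 and 6.79 to 6.90 at day 7, also with 7. The endothelial genes Cdh5 and Kdr were above it on all 8 arrays, at 6.81 to 7.11 at day 20 and 6.81 to 6.94 at day 7. Day 7 replicate 2 stood apart: its enterocyte marker mean was 11.29, the day 7 rest had 9.20 to 9.66, and the day 20 arrays had 6.85 to 6.99. This mean covers Apoa1, Sis, Alpi and Fabp2, and the Fabp2 probe was above the limit on none of the arrays. Day 20 replicates 1 and 4 had Xist, the X-inactivation transcript, at 6.68 and 6.74, against 9.39 to 10.41 on the other 6 arrays. Across all genes tested these arrays correlated at r = 0.992 and day 20 replicates 2 and 3 at 0.991, against 0.983 to 0.985 between the pairs (genes are not independent replicates). The day 20 arrays thus lay in pairs, which the SDs and the fit, with n = 4, do not take into account. Fibroblast markers averaged 6.95 to 7.40 at day 20 and 7.44 to 7.55 at day 7, through Vim (7.95 to 11.31 at day 20, 11.41 to 12.13 at day 7), and the muscle gene Acta2 had 7.03 to 7.90 at day 20 and 7.94 to 9.98 at day 7. The part of these features in the values below was not tested. In RNA from whole cultures, fewer cells of a type and less RNA per cell cannot be told apart.

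No ribosomal protein gene of either class passed the test between the days. The counts were 0 of 55 cytosolic and 0 of 73 mitochondrial genes at a limma adjusted p under 0.05 (Benjamini-Hochberg over all genes), where 4.85% of all genes tested were called, 2.51% higher and 2.33% lower at day 20. The called share was 6.37% among genes with a mean of at least 10 and 5.49% with a mean of at least 12. At least 10 was reached by 96 of the 128 members tested and at least 12 by 49. At an unadjusted limma p under 0.05, 8 cytosolic genes were higher and 1 was lower at day 20, and 15 mitochondrial genes were higher and none was lower. Together these are 18.75% of the 128 members tested, where the share over all genes was 20.4% (10.8% higher and 9.62% lower). It was 26.2% and 26.6% among genes with means of at least 10 and 12. No other tool than limma was run. The smallest limma adjusted p of any member was 0.119, for Mrpl23.

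The differences were small in both classes. They ran between -0.34 and 0.45 in the cytosolic class and between -0.22 and 0.56 in the mitochondrial class, on the log2 scale, day 20 minus day 7. A difference of 0.5 or more in either direction was reached by no cytosolic gene and by 3 mitochondrial genes (Mrpl16, Mrpl52 and Mrps10), where 7.69% of all genes reached it. The SD of the differences across genes was 0.175 and 0.181 in the cytosolic and mitochondrial classes, and 0.361 over all genes tested. This narrower spread stood beside a similar spread within days: the median within-day SD was 0.138 in the cytosolic class, 0.160 in the mitochondrial class and 0.138 over all genes. Among genes with means of at least 10 and 12, the SD of the differences was 0.442 and 0.319. Their median within-day SD was 0.180 and 0.146.

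The intervals give the precision of each difference as read by 1 probe per gene, from the spread between arrays. They do not cover disagreement between probes, or compression near the background limit and the top of the scale. The Rps2 interval, for example, was -0.13 to 0.12, while its second probe differed by -0.26. The 95% interval of the difference lay inside -1 to 1 for 55 of 55 cytosolic and 71 of 73 mitochondrial genes, against 93.7% of all genes tested. The exceptions were Mrps10, whose interval reached 1.30, and Mrpl52, whose interval reached 1.03. Inside -0.5 to 0.5 lay 42 of 55 cytosolic and 60 of 73 mitochondrial genes, against 72.4% of all genes. Among genes with means of at least 10 and 12 they numbered 1450 of 2356 and 399 of 546. With the spread of each gene as measured, the difference needed to pass the test had a median of 0.40 in the cytosolic class and 0.45 in the mitochondrial class, with lower values for the genes of smaller SE.

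**Figure D1:**
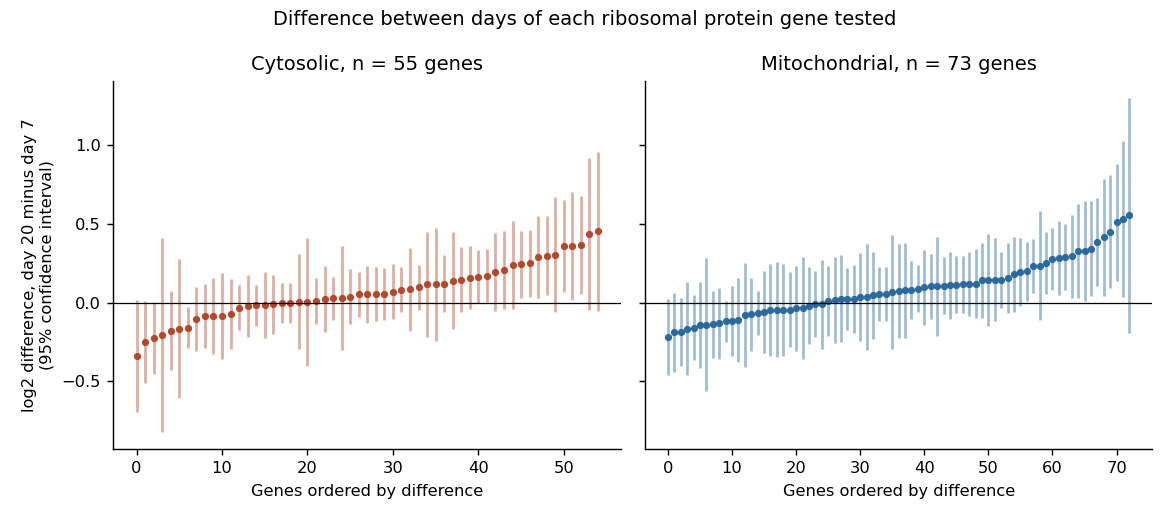
Difference between the days (y axis, log2 intensity at day 20 minus day 7) of each tested gene, ordered by size along the x axis, for 55 cytosolic (left) and 73 mitochondrial genes (right). Points are limma estimates and bars their 95% confidence intervals; the points run between -0.34 and 0.45 on the left and between -0.22 and 0.56 on the right.

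Differences above 0 were more frequent than below 0 in both classes, by a small margin in size. They were above 0 for 36 of 55 cytosolic (65.5%) and 48 of 73 mitochondrial genes (65.8%), where 51.6% of all genes were above 0. Among genes with means of at least 10 and 12 the share was 48.1% and 43.6%. The median difference was 0.053 in the cytosolic class and 0.073 in the mitochondrial class, against 0.005 over all genes. With the subunit read from the symbol alone, the medians were close. The median was 0.055 over 31 cytosolic large (Rpl) and 0.045 over 24 cytosolic small (Rps) subunit genes. In the mitochondrial class it was 0.07 over 46 large (Mrpl) and 0.0775 over 27 small (Mrps) subunit genes. An unadjusted limma p under 0.05 was reached by 25.8% of cytosolic large and 4.17% of cytosolic small subunit genes. The shares were 17.4% and 25.9% in the mitochondrial class, and 20.4% over all genes. These are descriptions of lists with no test, since their genes share the same 8 arrays. Without day 7 replicate 2 the differences above 0 numbered 29 of 55 and 43 of 73, with medians of 0.019 and 0.037. Without day 20 replicates 1 and 4 they numbered 30 of 55 and 30 of 73, with medians of 0.045 and -0.0175.

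**Figure D2:**
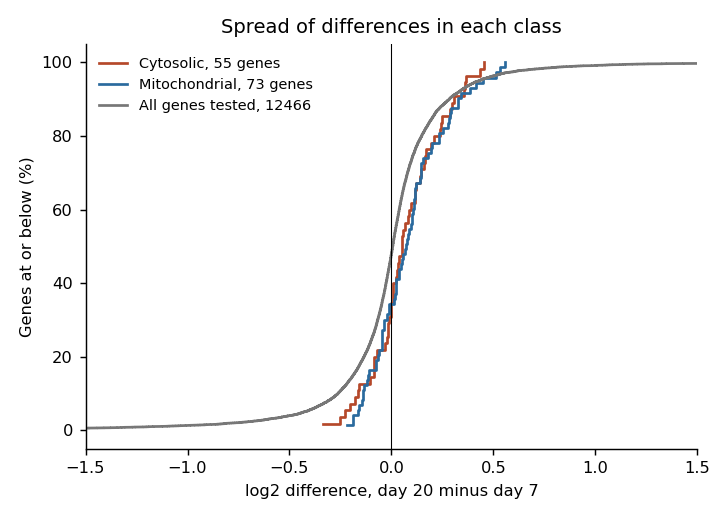
Share of genes (y axis, %) at or below each log2 difference, day 20 minus day 7 (x axis, shown between -1.5 and 1.5), for the 55 cytosolic, 73 mitochondrial and 12466 genes tested in all. Both class curves are steeper and shifted slightly to the right of the curve for all genes, with medians of 0.053, 0.073 and 0.005.

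The class mean, taken over the tested genes, varied from array to array. The cytosolic mean was 12.94, 12.89, 12.88 and 12.94 on day 20 replicates 1 to 4, and 12.91, 12.69, 12.86 and 12.91 on day 7 replicates 1 to 4. Day 7 replicate 2 was the lowest of all 8 arrays, and the other day 7 arrays lay close to the day 20 range. Over replicates the cytosolic class averaged 12.91 ± 0.032 at day 20, against 12.84 ± 0.105 at day 7 (SD, n = 4 each). The mitochondrial mean was 10.57, 10.48, 10.35 and 10.60 on the day 20 arrays, and 10.41, 10.31, 10.44 and 10.49 on the day 7 arrays. Here day 20 replicates 1 and 4 were the highest, day 20 replicate 3 was below 3 of the 4 day 7 arrays, and the days overlapped. The mitochondrial class averaged 10.50 ± 0.114 at day 20, against 10.41 ± 0.079 at day 7 (SD, n = 4 each).

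The gap between the classes differed little between the days. On each array the cytosolic minus the mitochondrial mean was 2.37, 2.41, 2.53 and 2.34 at day 20 and 2.50, 2.38, 2.42 and 2.42 at day 7. It averaged 2.41 ± 0.084 at day 20, against 2.43 ± 0.048 at day 7 (SD, n = 4 each), a difference of -0.018 that is smaller than the spread within either day. Only the change of this gap between arrays can be read, since its size depends on the probes.

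**Figure D3:**
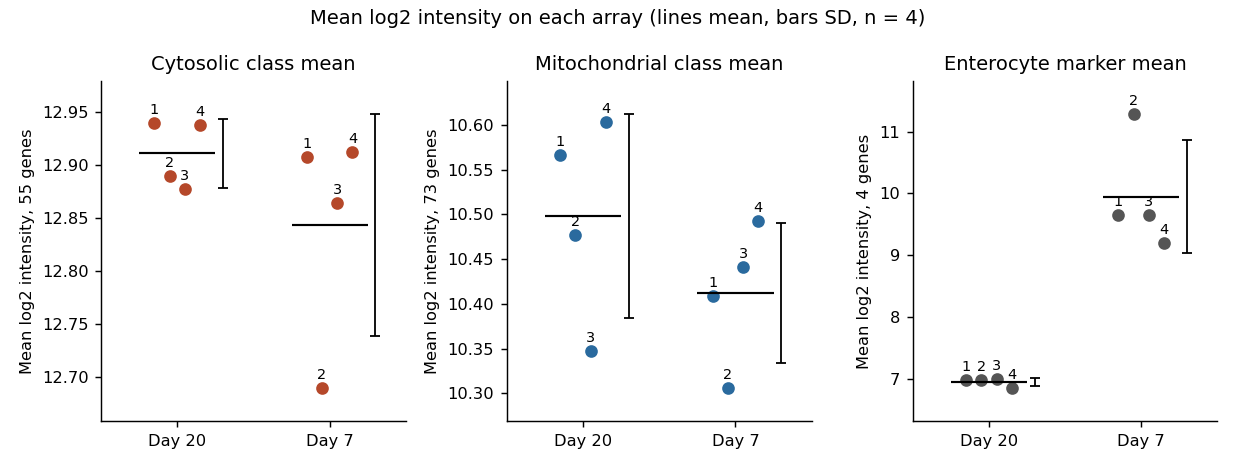
Mean log2 intensity (y axis) on each array, day 20 left of day 7, over 55 cytosolic genes (left), 73 mitochondrial genes (middle) and 4 enterocyte marker genes (right). Of the marker genes, Fabp2 was above the background limit on none of the arrays. Points are arrays numbered by replicate, lines are means and bars are SDs (n = 4); the y axes do not start at 0 and differ in span, and day 7 replicate 2 is lowest in the first panels and highest in the third.

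Single arrays moved many members together. Day 7 replicate 2 was alone the lowest of the 8 arrays for 27 of 55 cytosolic and 33 of 73 mitochondrial genes, and for 21.3% of all genes tested. It was the array with the highest enterocyte marker mean (above), and its goblet marker mean of 12.56 was also the highest. The part of differentiated cells in the low ribosomal values of that array was not tested. In the mitochondrial class, day 20 replicates 1 and 4 were alone the highest for 18 and 23 of 73 genes, replicate 2 for 6 and replicate 3 for 0. Each of these day 20 arrays was alone the highest for 11.1% to 12.9% of all genes. Replicates 1 and 4 were the arrays with Xist at background, and its part in the mitochondrial values was not tested.

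**Figure D4:**
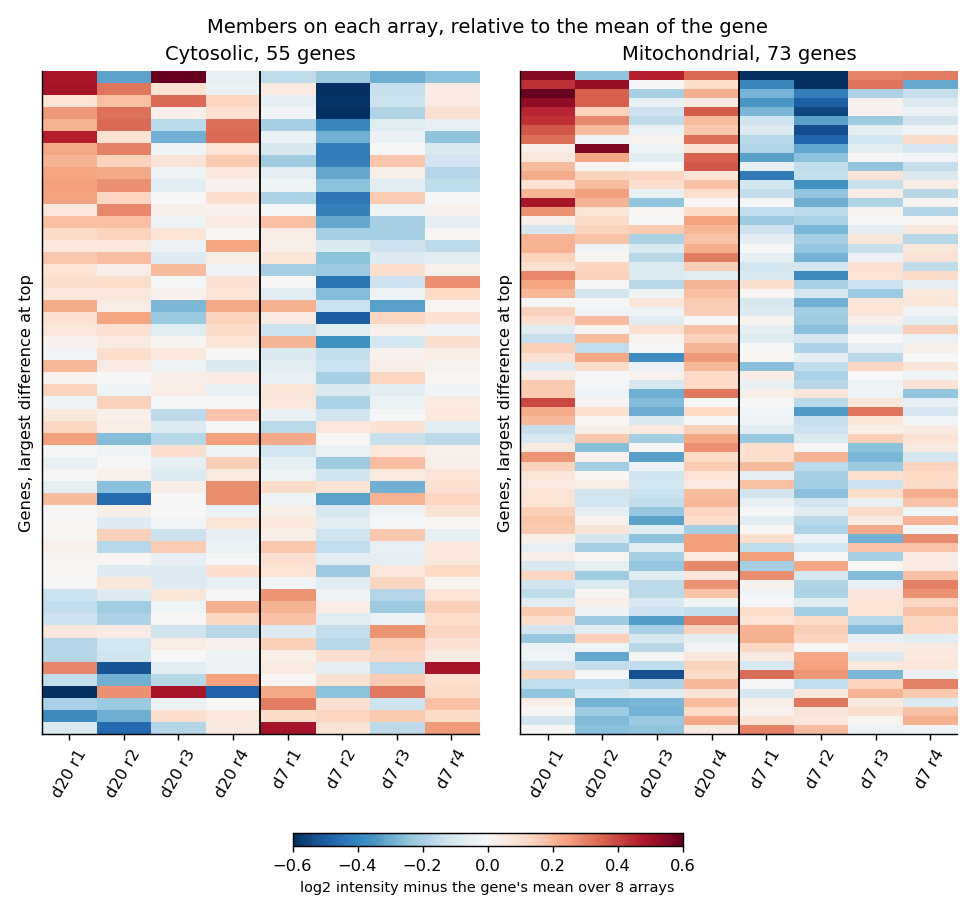
Log2 intensity of each tested member minus its mean over the 8 arrays (colour, clipped at -0.6 and 0.6), for 55 cytosolic (left) and 73 mitochondrial genes (right), with genes ordered by difference and day 20 arrays (d20) left of day 7 arrays (d7). The column of day 7 replicate 2 is mostly blue in both panels, and in the mitochondrial panel the columns of day 20 replicates 1 and 4 are mostly red.

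In the cytosolic class, the smallest p-values above 0 belonged to large subunit genes. Rpl39 encodes a small protein that lines the tunnel through which the nascent chain leaves the ribosome. It had 13.75, 13.85, 14.01 and 13.80 on the day 20 arrays, against 13.61, 13.08, 13.54 and 13.72 on the day 7 arrays. All day 20 arrays were above all day 7 arrays, by only 0.03 at the closest, and day 7 replicate 2 was the lowest. The difference was 0.37 (SE 0.136, limma adjusted p = 0.176), and 0.23 without that array. Rpl36a, another large subunit protein, had 12.84, 12.97, 12.47 and 12.96 at day 20, against 12.43, 12.24, 12.56 and 12.58 at day 7. Day 20 replicate 3 lay within the day 7 range and the other day 20 arrays above it. The difference of 0.36 (SE 0.127, limma adjusted p = 0.161) passed the threshold only without day 20 replicate 3 (0.47, limma adjusted p = 0.0430). Rpl19, a large subunit protein that takes part in a bridge to the small subunit, differed by 0.30 (SE 0.109, limma adjusted p = 0.171), and its groups overlapped.

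Fewer cytosolic genes lay below 0. Rpl23, a large subunit protein also known for binding the p53 regulator Mdm2, had 14.84, 14.89, 15.01 and 14.98 at day 20, against 15.05, 15.11, 15.14 and 15.06 at day 7. All day 20 arrays were below all day 7 arrays, but the difference was only -0.16 (SE 0.0574, limma adjusted p = 0.164). Its other probes past the filter differed by 0.14 and 0.22, in the opposite direction, and their mean with the first was 0.065. Rpl41, the smallest ribosomal protein, had 14.78, 14.87, 15.26 and 15.23 at day 20, against 15.27, 15.29, 15.32 and 15.27 at day 7. The groups did not overlap, yet day 20 replicates 3 and 4 were close to the day 7 arrays, the groups being 0.01 apart. The difference was -0.25 (SE 0.113, limma adjusted p = 0.257). Rps6, the small subunit protein phosphorylated by S6 kinases downstream of mTOR, had 13.71, 13.68, 13.87 and 13.90 at day 20, against 14.21, 14.00, 13.78 and 14.08 at day 7. Day 7 replicate 3 lay within the day 20 range and the other day 7 arrays above it, and the difference was -0.23 (SE 0.0998, limma adjusted p = 0.247). The lowest difference of the class, -0.34, was that of the large subunit gene Rpl30 (limma adjusted p = 0.268), named here after its value was seen.

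Groups that did not overlap were rare among members. They numbered 1 higher (Rpl39) and 2 lower (Rpl23 and Rpl41) of 55 cytosolic genes, and 3 higher (Mrpl23, Mrpl24 and Mrps6) and 1 lower (Mrpl33) of 73 mitochondrial genes. Over all genes tested the shares were 6.27% higher and 6.84% lower, 13.1% in all.

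In the mitochondrial class, Mrpl23, a large subunit protein, had 11.86, 11.96, 11.88 and 11.95 at day 20, against 11.67, 11.41, 11.64 and 11.82 at day 7. All day 20 arrays were above all day 7 arrays, and the day 20 values were close together. The difference was 0.28 (SE 0.0865, limma adjusted p = 0.119), and 0.20 without day 7 replicate 2. Mrps18c, a small subunit protein related to bacterial S18, had 9.90, 9.75, 9.31 and 9.65 at day 20, against 9.34, 9.14, 9.25 and 9.35 at day 7. Mrpl16, a large subunit protein, had 9.63, 9.35, 8.79 and 9.21 at day 20, against 8.71, 8.58, 8.80 and 8.85 at day 7. For both, day 20 replicate 3 lay among the day 7 arrays and the other day 20 arrays lay above them. The difference was 0.38 for Mrps18c (SE 0.122, limma adjusted p = 0.126) and 0.51 for Mrpl16 (SE 0.163, limma adjusted p = 0.126). Without day 20 replicate 3 both passed the threshold, at 0.50 (limma adjusted p = 0.0270) for Mrps18c and 0.66 (limma adjusted p = 0.0274) for Mrpl16. With Rpl36a these were the only members to do so in the 17 alternatives, and 3.94% of all genes were called in that fit.

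No mitochondrial gene was below 0 at an unadjusted limma p under 0.05. Mrpl33, a large subunit protein, had 11.66, 11.67, 11.53 and 11.68 at day 20, against 11.82, 11.70, 11.75 and 11.75 at day 7. The groups did not overlap and lay 0.02 apart at the closest, with a difference of -0.12 (SE 0.0565, limma adjusted p = 0.279). Mrpl48 of the large subunit differed by -0.22 and Mrps31 of the small subunit by -0.19, both with overlapping groups (limma adjusted p = 0.286 and 0.303), and the mean over the Mrpl48 probes was -0.12. Mrpl24 and Mrps6, the other genes without overlap, differed by 0.33 and 0.29 (limma adjusted p = 0.201 and 0.127).

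Other members were named for a known role (Rps19, Mrpl12 and Mrps5) or as the brightest by probe mean in their class. Rps19, a small subunit protein whose mutation causes Diamond-Blackfan anaemia in humans, had 14.96 to 15.01 at day 20, against 14.87, 14.67, 14.90 and 15.05 at day 7, a difference of 0.12 (limma adjusted p = 0.455). Day 7 replicate 4 was above every day 20 array. By their brightest probes Rps2 and Rps9, small subunit proteins, differed by -0.0025 and -0.0175 (limma adjusted p = 0.987 and 0.907). Their second probes differed by -0.26 and -0.13, and the mean over both probes by -0.13 and -0.071, neither past the test. The brightest probes lay between 15.06 and 15.38, close to the top of the scale, where a change would be compressed. Mrpl12, a large subunit protein that also binds the mitochondrial RNA polymerase, differed by 0.038 (95% interval -0.24 to 0.32). Mrps5, known from Caenorhabditis elegans, where its reduction lengthens life, differed by 0.15 (95% interval -0.12 to 0.41). In the mitochondrial class Mrpl17, Mrpl28 and Mrps24, the genes with the highest probe means, differed by 0.29, 0.022 and 0.077 (limma adjusted p = 0.192, 0.922 and 0.806).

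Several paralogs of cytosolic proteins could be followed. Rps27l, a p53-inducible paralog of Rps27, differed little, with 13.95, 13.99, 13.94 and 14.14 at day 20 and 13.94, 13.78, 14.18 and 14.03 at day 7 (difference 0.022, 95% interval -0.19 to 0.23). Rpl22l1, the paralog that Rpl22 is known to repress, was near the limit, at 7.01 to 7.22 at day 20 and 6.81 to 7.13 at day 7. Rpl3, which forms part of the peptidyl transferase region, differed by 0.08 and Rps4x by -0.11, and Rpl7l1, the paralog of Rpl7, by -0.18 (limma adjusted p = 0.533, 0.567 and 0.408). The second Rpl7l1 probe differed by 0.15, in the opposite direction, and the mean over its probes by -0.0175. The tissue-restricted paralogs Rpl3l and Rpl39l gave no more than 6.81 at day 20 and 6.87 at day 7 and were not tested. No probe used here carried the symbols Rps27, Rpl7, Rpl10, Rpl10l, Rpl5 or Rpl11, which were looked for as well.

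A few members varied strongly within a day. Rpl22, a large subunit protein that also binds other RNAs, had 10.33, 11.30, 11.52 and 10.54 at day 20, against 11.25, 10.78, 11.34 and 11.14 at day 7. Its low day 20 arrays were replicates 1 and 4, those with Xist at background, far below replicates 2 and 3, and the part of that feature was not tested. The difference was -0.21 (SE 0.270, limma adjusted p = 0.737), and it was 0.28 without these arrays (limma adjusted p = 0.448). Mrps10, a small subunit protein, had 11.17, 10.38, 11.09 and 10.96 at day 20, against 9.79, 9.74, 10.92 and 10.93 at day 7. Day 7 replicates 1 and 2 were low and replicates 3 and 4 lay within the day 20 range. Its difference of 0.56 (SE 0.325, limma adjusted p = 0.388) was the largest of all members, and its 3 other probes differed by 0.34, 0.18 and 0.043.

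Among other variable members, Rps4l, a copy of the small subunit gene Rps4x, had 7.71, 6.90, 8.01 and 7.17 at day 20, against 7.07, 7.01, 6.93 and 6.97 at day 7. Its day 20 replicates 1 and 3 were the highest and replicate 2 was the lowest of all arrays (difference 0.45, SE 0.220, limma adjusted p = 0.294). Rps3a1, a small subunit protein, had 9.78, 9.60, 9.37 and 9.24 at day 20, against 9.34, 8.44, 9.14 and 9.33 at day 7, with day 7 replicate 2 far below the rest (difference 0.44, limma adjusted p = 0.295). Mrpl52 of the large subunit differed by 0.53 (SE 0.216, limma adjusted p = 0.210) and Mrps11 of the small subunit by -0.14 (SE 0.183, limma adjusted p = 0.736), both with overlapping groups, and the mean over the Mrps11 probes was -0.075.

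**Figure D5:**
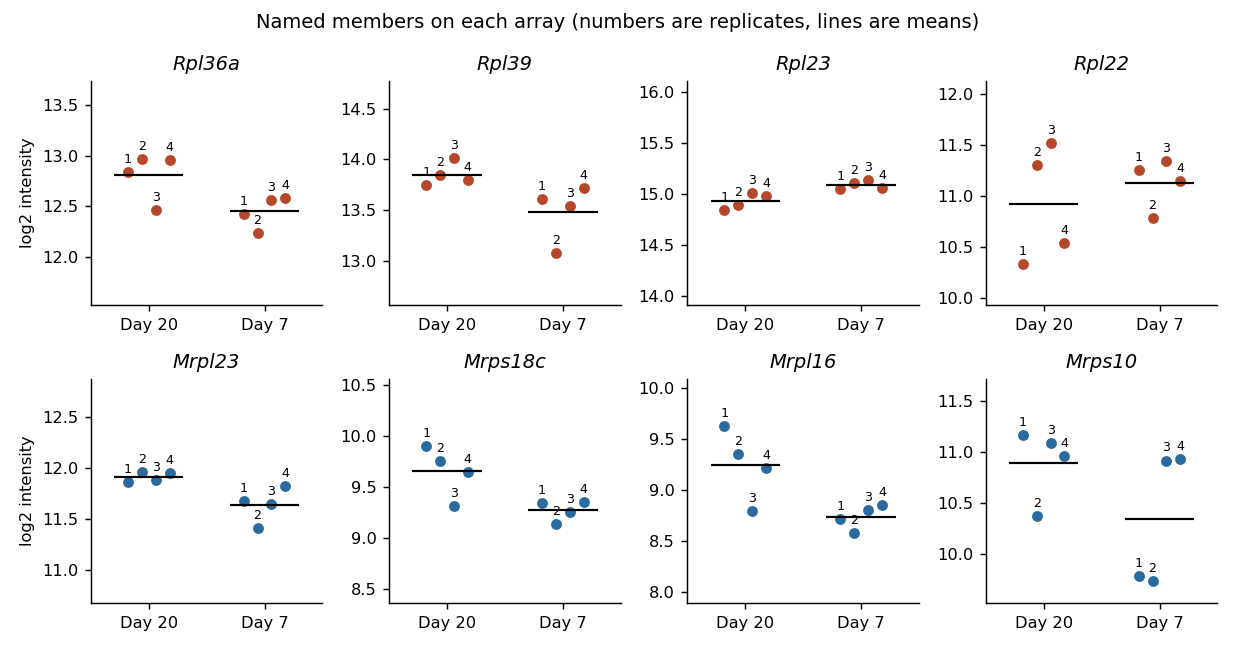
Log2 intensity (y axis, a span of 2.2 in each panel) of 8 members on each array, day 20 left of day 7, with cytosolic genes above and mitochondrial genes below. Points are arrays numbered by replicate and lines are means; only Rpl39, Rpl23 and Mrpl23 have groups that do not overlap, and Rpl22 and Mrps10 vary widely within a day.

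The remaining 9 members were too dim to test. Rpl14, Rpl17, Rpl39l, Rpl3l, Rps20 and Rps23 in the cytosolic class and Mrpl19, Mrpl32 and Mrps14 in the mitochondrial class had their brightest probe above the limit on fewer than 4 arrays. Rps20, for example, had 6.67, 6.65, 6.69 and 6.64 at day 20 and 6.68, 6.71, 6.70 and 6.79 at day 7, all below the limit. Most of these proteins belong to every cytosolic or mitochondrial ribosome, so these values describe the probes and give no level of the genes. The symbols also took in Rps19bp1, a regulator of the deacetylase Sirt1 that is no ribosomal protein, and the retrogene Rps23rg1. They differed by 0.03 and 0.038 (limma adjusted p = 0.940 and 0.842).

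Different probes of a gene did not always move together. Of the members, 44 had more than 1 probe past the filter, and in 18 of these the probes differed in sign. The gap between the highest and the lowest difference had a median of 0.12 and reached 0.72 in Rps24, a small subunit gene whose probes differed by -0.088, 0.44 and -0.28 (named here after its values were seen). Ribosomal protein genes have many processed pseudogenes and some close paralogs, and whether a probe also reads those was not tested.

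Some short words were more frequent in the promoters of members than in all promoters, a feature that the symbols did not use. Windows of 300 bases, 250 before and 50 after an annotated start, were taken from RefSeq (GRCm38.p6), where 118 of 137 members matched. A gene with several annotated starts was counted once per start. The 61 cytosolic windows came from 51 genes and the 73 mitochondrial windows from 67, so the shares below are of windows. The letters CCGGAAG, the core bound by ETS factors, stood on either strand in 36.1% of 61 cytosolic and 35.6% of 73 mitochondrial windows, against 8.86% of all 32851 windows. AAGATGG, a YY1-like word, stood in 13.1% of cytosolic, 17.8% of mitochondrial and 6.34% of all windows. A run of at least 8 pyrimidines on the gene's strand between 20 bases before and 30 bases after the start stood in 44.3% of cytosolic, 21.9% of mitochondrial and 19% of all windows. The median GC content was 59.3% in the cytosolic, 58.7% in the mitochondrial and 52.7% in all windows, and a match by base composition was not made. CCGGAAG and AAGATGG can share the letters AAG, and the complement of CCGGAAG can share pyrimidines with the run.

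Short stretches show the ETS core in members described above, with the core or its complement in capitals, 5′ to 3′ on the gene's strand. They are Rps6 and Rpl41, among the lowest differences of the cytosolic class, and Mrps18c and Mrpl33, which lay on opposite sides of 0 in the mitochondrial class. The stretches are chr4:86857427-86857483 on the minus strand, chr10:128549193-128549249 on the minus strand, chr5:100798578-100798634 on the plus strand and chr5:31613923-31613970 on the plus strand.
Rps6: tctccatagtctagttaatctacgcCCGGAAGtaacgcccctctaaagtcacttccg
Rpl41: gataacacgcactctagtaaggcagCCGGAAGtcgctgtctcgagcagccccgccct
Mrps18c: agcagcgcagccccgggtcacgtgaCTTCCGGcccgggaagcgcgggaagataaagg
Mrpl33: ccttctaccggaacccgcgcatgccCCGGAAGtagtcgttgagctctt
In the Mrpl33 window the core covers the annotated start itself, and in the others it lies upstream.

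The pyrimidine run is shown for 2 small subunit genes in which it covers the start, with the run in capitals. The stretches are chr4:86857348-86857387 on the minus strand for Rps6 and chr7:3704021-3704060 on the plus strand for Rps9.
Rps6: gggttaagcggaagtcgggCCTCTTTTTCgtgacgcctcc
Rps9: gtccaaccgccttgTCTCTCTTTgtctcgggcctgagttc
Genes with and without these features differed little in their change between days. The median difference was 0.054 over 20 tested cytosolic genes with CCGGAAG and 0.03 over 27 without it. In the mitochondrial class it was 0.022 over 26 genes with CCGGAAG and 0.08 over 39 without it. Cytosolic genes with the run had a median of 0.053 (25 genes) and those without it 0.0175 (22 genes). Mitochondrial genes had 0.049 with the run (16 genes) and 0.077 without it (49 genes).

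Of 84 tested genes in 6 lists that regulate or accompany the ribosome, 4 passed the test, 4.76% where the share over all genes was 4.85%, so the lists as a whole were at the background. The called genes are described singly. In a list of mTOR and TOP mRNA regulators, 2 of 16 tested genes were called, both higher at day 20. Eif4ebp1, the mTOR substrate that blocks cap-dependent initiation, had 12.51, 12.34, 12.34 and 12.40 at day 20, against 11.71, 11.02, 11.30 and 11.39 at day 7. The groups were far apart, and it rose by 1.04 (SE 0.133, limma adjusted p = 0.00458). Ddit4, a stress-induced inhibitor of mTORC1, had 11.50, 12.82, 12.04 and 12.05 at day 20, against 10.57, 10.52, 10.81 and 10.14 at day 7, and rose by 1.59 (SE 0.263, limma adjusted p = 0.0145). All its day 20 arrays were above all its day 7 arrays.

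Of 37 tested cytosolic translation factors, 1 was called, Eif2s2, the beta subunit of the factor that brings initiator tRNA. It had 11.36, 11.23, 11.62 and 11.25 at day 20, against 10.84, 10.26, 10.52 and 10.56 at day 7, without overlap, and rose by 0.82 (SE 0.134, limma adjusted p = 0.0141). It missed the threshold without day 20 replicates 1 and 4 (0.88, limma adjusted p = 0.0604). Of 11 tested genes of mitochondrial ribosome assembly, 1 was called, Tfb1m, which methylates the small subunit rRNA. It had 7.64, 7.99, 7.78 and 7.76 at day 20, against 7.32, 7.24, 7.54 and 7.42 at day 7. The groups did not overlap and it rose by 0.41 (SE 0.0933, limma adjusted p = 0.0446), a call that was lost in 11 of 17 alternatives.

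None of 12 mitochondrial translation factors passed the test (3 were higher and 1 lower at an unadjusted limma p under 0.05, where the shares over all genes were 10.8% and 9.62%). The release factor gene Mtrf1l differed by 0.31 and Gfm2, a factor that recycles mitochondrial ribosomes, by 0.44 (limma adjusted p = 0.122 and 0.182). Ribosomal proteins named outside the symbol rule likewise had no call, 0 of 4 tested in the cytosolic list (none at an unadjusted limma p under 0.05) and 0 of 4 in the mitochondrial list (1 at an unadjusted limma p under 0.05). Among them the stalk protein gene Rplp2 differed by -0.15 and the small subunit gene Rpsa by 0.11 (limma adjusted p = 0.304 and 0.329). The Rpsa probe lay near the background limit, at 6.79 to 6.98 at day 20 and 6.76 to 6.81 at day 7. It was above the limit on 3 day 20 arrays and 1 day 7 array. Of the mitochondrial small subunit, Ptcd3 differed by 0.36 and Dap3 by 0.085 (limma adjusted p = 0.233 and 0.639). The mean over the Ptcd3 probes was 0.17.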

How the data were processed

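Per the labels' protocols, RNA of 8 organoid samples was made into biotin-labelled cRNA for Illumina mouse beadchips. The values are log2 intensities deposited by the authors, whose normalization method is not given in the sources used here. Their distribution is the same on every array. A deposited non-normalized table was not used, since its 16 per-sample columns match no label. Instead of the detection p-values that were planned, the filter was a background limit: the mode of the deposited values (6.7), raised by the SD below it (0.0584) times the normal deviate at an upper tail of 0.05. Genes above it on at least 4 of 8 arrays were tested.

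Of 45281 probes, 34885 had 1 symbol, 18 had several and 10378 were not listed. All 137 members were found in RefSeq by symbol. Day 20 minus day 7 was fitted in R 4.3.3 by limma 3.58.1 (lmFit, then eBayes, no covariates, two-sided, Benjamini-Hochberg over 12466 genes, threshold 0.05). The fit was checked on simulated data whose noise was independent between genes and between arrays. That check does not cover the pairs among the day 20 arrays or shifts of a whole array. Figures used matplotlib 3.10.9 in Python 3.11.15.

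The members, lists and alternatives were chosen with earlier results of these data known. Named members were, per class, the called genes or the 3 smallest p-values in each direction, the 3 brightest, 3 dimmest and 3 most variable within days, and a panel. From each other list the called genes were named, or the 2 with the smallest p. Each alternative changed 1 choice: cyclic loess, a replicate block, a strict filter (tail 0.01) or none, the mean over probes, trend and robust variance, array weights, background subtraction with an offset of 16, day 20 replicates 1 and 4 left out, or each array left out. All values for genes with means of at least 10 and 12 were added after the data were seen. Arrays carry no counts, and their number limits the precision.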

Additional observations from a re-analysis of the deposited data

Results flagged for a closer look

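In 102 groups of 4 arrays examined for the named genes and the class means, 2 single values lay farther from the others than Dixon's 95% critical value allows, where chance alone flags about 1 group in 20. Mrpl33 was at 11.53 on day 20 replicate 3, below the 11.66 to 11.68 of the other day 20 arrays. The low value adds to its difference of -0.12, which had not passed the test. Rpl39l was at 6.87 on day 7 replicate 4, above the 6.75 to 6.77 of the other day 7 arrays, and it was the only array on which its probe exceeded the background limit.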

How the results depend on the processing

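Over 17 alternatives no member was called except without day 20 replicate 3, where Rpl36a, Mrps18c and Mrpl16 were. Leaving out each array in turn thus gave 0 to 1 cytosolic and 0 to 2 mitochondrial genes higher at day 20, and 0 lower. The medians then ran between 0.019 and 0.072 in the cytosolic class and between 0.037 and 0.118 in the mitochondrial class, and the change of the gap between classes between -0.058 and 0.0073. Without day 20 replicates 1 and 4 the mitochondrial median was -0.0175 and the change of the gap 0.040. The cause was not tested. Other settings gave medians of 0.028 to 0.060 and 0.048 to 0.080. With replicate number as a block the medians were 0.0525 and 0.0725 with 0 members called, and genes called in all fell to 401. The numbers were not taken as pairs, since the correlations of same-numbered arrays were 0.119, 0.050, -0.0096 and 0.142 and 2 of 4 matched their own number best. Genes called in all were 604. They fell to 373 and 353 when day 20 replicate 2 or 4 was left out, to 301 and 349 when day 7 replicate 1 or 3 was, and to 413 with day 20 replicates 1 and 4 both gone. Of 696 values of 41 named genes under the alternatives, 681 kept their side of the threshold, 12 lost a call (11 of Tfb1m and 1 of Eif2s2), 3 gained one, and 24 values of genes without a call changed sign. Compression near the background limit and near the top of the scale limits what dim and bright probes can show.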
